A study of Mus musculus with 26 samples.

Results

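The 10 genes described here encode the receptors for IL17A and TNFα and the proteins that bind directly to or just behind them: the IL17 receptor chains *Il17ra*, *Il17rc* and *Il17rd*, the IL17 adaptors *Traf3ip2* and *Traf6*, the TNF receptors *Tnfrsf1a* and *Tnfrsf1b*, and the TNF receptor adaptors *Tradd*, *Ripk1* and *Traf2*. They were picked by symbol, by their known place in the pathways, from 56738 gene symbols in the count table, and all 10 were among the 16893 genes that passed the filter on low counts. The study asked what loss of *Pla2g4d*, a phospholipase A2 gene with transacylase activity, does to keratinocytes at rest and under psoriasis-like cytokines. Primary keratinocytes came from the skin of newborn C57BL/6NJ mice, 2 days old, of which 5 were wild type (WT) and 8 lacked *Pla2g4d* (KO). Cells of each mouse were cultured for 4 days in 0.06 mM CaCl2 and were then left untreated (basal) or received IL17A and TNFα together, 20 ng/ml each, for 24 h. This gave 4 groups and 26 libraries of bulk RNA sequencing. The KO mice carry a CRISPR-Cas9 deletion in every cell of the body, bred as homozygotes, so that a difference of litter or line and the loss of the gene cannot be told apart. Wells of 1 animal were pooled. The 2 cytokines were always given together, so that the effects of IL17A and TNFα cannot be told apart either.

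IL17A binds a receptor made of the chains IL17RA and IL17RC, and IL17RD is a related chain that can join IL17RA. The adaptor ACT1, encoded by *Traf3ip2*, docks onto the receptor tails and recruits TRAF6, which passes the signal on to NF-κB and MAP kinases. TNF receptor 1 (*Tnfrsf1a*) is found on most cells and recruits TRADD, RIPK1 and TRAF2, from which either NF-κB signalling or cell death follows, while TNF receptor 2 (*Tnfrsf1b*) lacks a death domain, binds TRAF2 directly and is best known from immune and endothelial cells. In keratinocytes IL17A and TNFα act together on many genes of psoriasis, among them those for chemokines and antimicrobial peptides.

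Sequences upstream of the transcription start are shown for the 3 members that rose in every mouse with cytokines (*Tnfrsf1b*, *Traf2* and *Traf3ip2*) and for the 1 that fell in every mouse (*Traf6*). They were read from GRCm39 with GENCODE models and run 5′ to 3′ along the strand of the gene, up to the base before the annotated start. The windows were chr4:144973478-144973690 on the minus strand for *Tnfrsf1b*, chr2:25436988-25437237 on the minus strand for *Traf2*, chr10:39488680-39488929 on the plus strand for *Traf3ip2* and chr2:101508269-101508518 on the plus strand for *Traf6*. Capitals mark a match to the AP-1 motif.
*Tnfrsf1b*: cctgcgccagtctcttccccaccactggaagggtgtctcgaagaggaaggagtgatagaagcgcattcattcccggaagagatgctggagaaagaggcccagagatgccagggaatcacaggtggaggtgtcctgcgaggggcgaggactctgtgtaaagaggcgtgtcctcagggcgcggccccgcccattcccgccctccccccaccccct
*Traf2*: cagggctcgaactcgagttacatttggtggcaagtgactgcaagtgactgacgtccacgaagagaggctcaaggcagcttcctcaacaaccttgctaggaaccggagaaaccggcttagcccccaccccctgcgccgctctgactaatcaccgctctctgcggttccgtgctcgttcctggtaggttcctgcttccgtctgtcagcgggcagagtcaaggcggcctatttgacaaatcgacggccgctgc
*Traf3ip2*: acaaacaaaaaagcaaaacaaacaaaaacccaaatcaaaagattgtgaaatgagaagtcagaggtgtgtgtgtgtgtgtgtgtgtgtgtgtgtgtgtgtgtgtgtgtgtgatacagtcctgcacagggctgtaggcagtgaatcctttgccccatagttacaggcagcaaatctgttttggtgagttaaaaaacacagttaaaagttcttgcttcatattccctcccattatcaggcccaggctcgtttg
*Traf6*: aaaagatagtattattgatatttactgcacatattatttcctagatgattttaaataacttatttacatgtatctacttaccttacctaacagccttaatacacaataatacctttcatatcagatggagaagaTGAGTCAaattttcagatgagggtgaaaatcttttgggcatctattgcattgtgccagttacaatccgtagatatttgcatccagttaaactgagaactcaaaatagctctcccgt

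The 250 bases upstream of the canonical start of each member were searched on both strands for the NF-κB motifs GGANTTTCC and GGGNTTTCC, the AP-1 motif TGANTCA and the C/EBP motif TTGCNNAA. *Traf6* held 1 match, to the AP-1 motif, starting at base -116 from the start. None of these letter patterns stood in the windows of the other 9 members. Among 21757 protein-coding promoters of the same length, 1.18% held the first and 1.37% the second NF-κB motif, 6.18% held the AP-1 motif and 9.34% the C/EBP motif.

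Libraries held 42072745 to 78102858 counts (median 53126822), and each member except *Tnfrsf1b* had at least 435 counts in every library. Values are given as CPM, the count scaled to a common library size, with TMM, the trimmed mean of M values that edgeR uses to make libraries comparable. Of the nonzero counts from 1 to 100 over all genes, 79.9% were even, as were the counts of *Tnfrsf1b* in 23 of its 24 nonzero libraries, so that 2 counts may stand for 1 read pair. Keratinocyte markers summed to 41720 to 46080 CPM in basal WT libraries and 40040 to 46270 CPM in basal KO libraries, and to 32130 to 34410 CPM and 32490 to 33870 CPM with cytokines. *Krt5* and *Krt14* made up most of this sum. At rest *Krt1* had medians of 1440 (WT) and 813.2 CPM (KO), and *Krt10* of 969.2 and 549.8 CPM. With cytokines these were 70.82 and 24.47 CPM, and 25.79 and 12.24 CPM. Among the other markers at rest, *Krt5*, *Trp63* (358.3 in WT, 410.7 CPM in KO), *Itgb4* (763.3, 838.7) and *Cdh1* had higher medians in KO cells. The basal medians of *Krt14*, *Krt15*, *Itga6* and *Dsg3* were lower there. Of the 10 markers, 3 were called between genotypes at rest (2 higher and 1 lower in KO) and 2 with cytokines (2 lower). Basal *Krt1* was lowest among WT mice in mouse 1 (1033 CPM) and highest among KO mice in mouse 8 (1447 CPM). Melanocyte markers had a median sum of 578.1 CPM in basal WT, 473.5 CPM in treated WT, 562.1 CPM in basal KO and 340.4 CPM in treated KO libraries. Of these 7 markers, 4 were called lower with cytokines in WT and 6 in KO cells, and 4 were called lower in KO than in WT cells with cytokines. The part of melanocytes, or of these keratinocyte marker differences, in the values of the members was not tested. WT mouse 1 and KO mouse 8 stood apart from their groups: without the former, the genes called between genotypes with cytokines rose from 479 to 2069, and without the latter to 1114. *Pla2g4d* itself was measured at 1.215 to 4.632 CPM in basal WT, 1.147 to 2.981 CPM in basal KO, 28.58 to 65.17 CPM in treated WT and 29.17 to 59.19 CPM in treated KO libraries. Gene-level counts include the exons outside the deletion, so these values do not check the genotype.

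**Figure D1:**
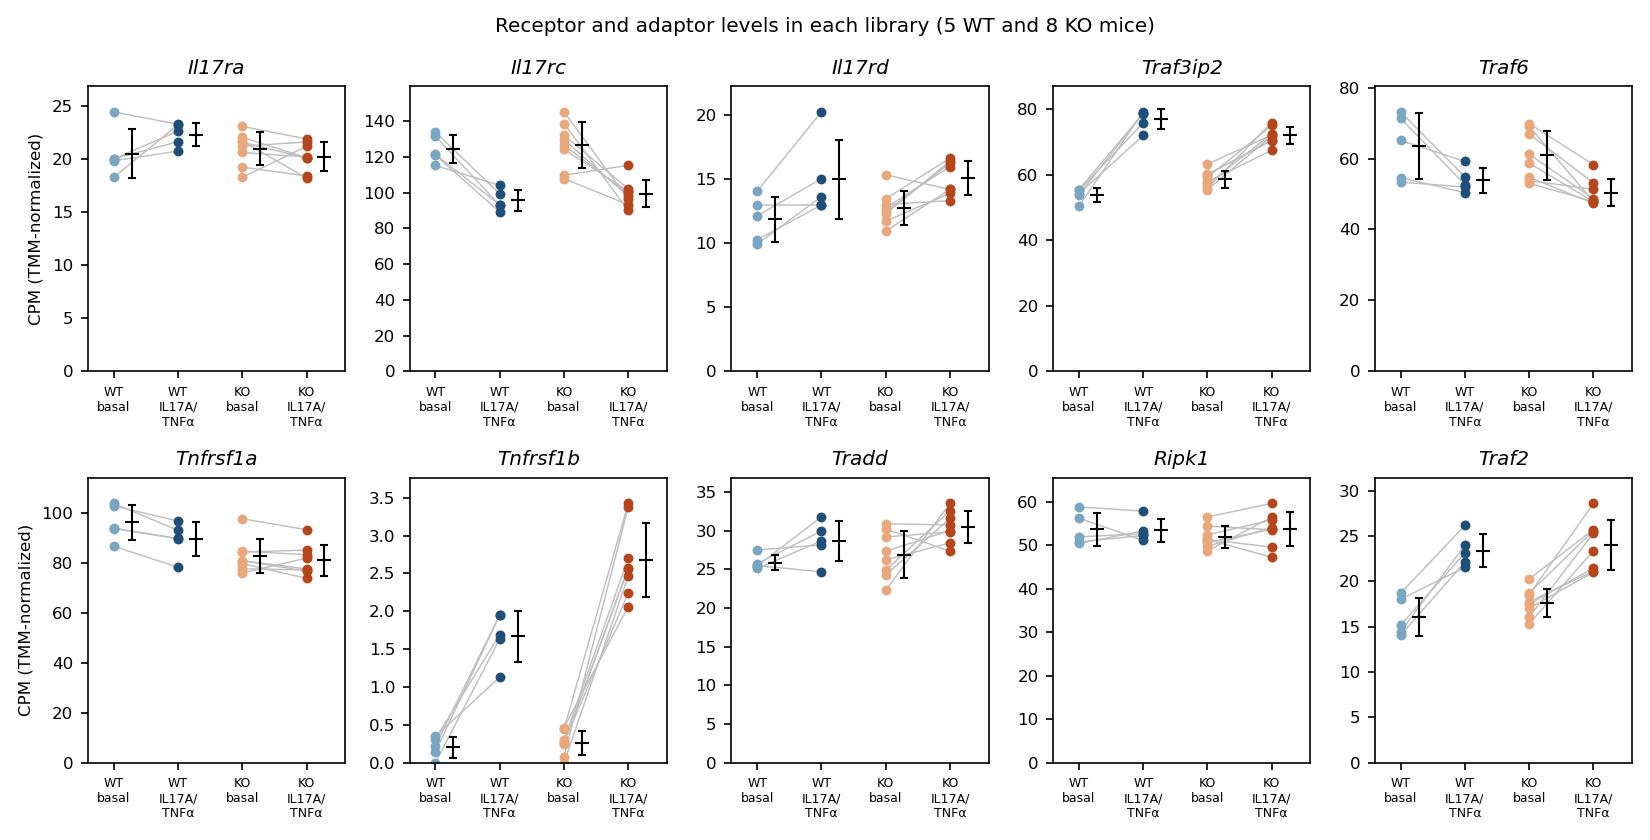
Level of each member in every library, in TMM-scaled CPM on a linear axis from 0, with grey lines joining the basal and the treated (IL17A/TNFα) library of 1 mouse and a bar for mean and SD (5 WT and 8 KO mice). *Tnfrsf1b* rises from under 0.5 CPM in all 13 mice, and with cytokines the 8 KO points lie above the 5 WT points. The fitted cytokine changes of the other members are under 1.5-fold.

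Members differed widely in level. On the scale of CPM per kb of exon, which allows levels of genes to be compared, the order of medians in basal WT cells was *Tnfrsf1a* (29.88), *Il17rc* (26.78), *Tradd* (11.04), *Traf6* (6.285), *Traf3ip2* (5.314), *Ripk1* (4.722), *Il17ra* (2.28), *Traf2* (1.976), *Il17rd* (1.029) and *Tnfrsf1b* (0.04554). Neighbours whose ranges over the 5 mice overlapped were *Tnfrsf1a* and *Il17rc*, then *Traf6*, *Traf3ip2* and *Ripk1*, and then *Il17ra* and *Traf2*. In basal KO cells *Il17rc* (median 28.25) came before *Tnfrsf1a* (25.72), again with overlapping ranges, and the rest kept that order. With cytokines *Traf3ip2* stood above *Traf6* and *Ripk1*, and *Traf2* above *Il17ra*, in both genotypes and without overlap. Part of this order rests on the length used. Per kb of the longest transcript, *Traf3ip2* (median 8.293) already stood above *Traf6* (8.101) and *Traf2* (3.207) above *Il17ra* (2.554) in basal WT cells, with overlapping ranges, and *Tnfrsf1a* came before *Il17rc* in both genotypes at rest, without overlap in WT cells. With cytokines the 2 scales gave the same order for *Traf3ip2* over *Traf6* and *Ripk1* and for *Traf2* over *Il17ra*. The IL17 receptor chains were thus unequal in transcript level, with a per-kb ratio of *Il17rc* to *Il17ra* of 12.72 (median, range 9.119 to 13.06) in basal WT cells and 12.38 (9.039 to 13.4) in basal KO cells. With cytokines the ratio was 7.973 (7.762 to 9.266) in WT and 9.628 (8.235 to 10.32) in KO cells.

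**Figure D2:**
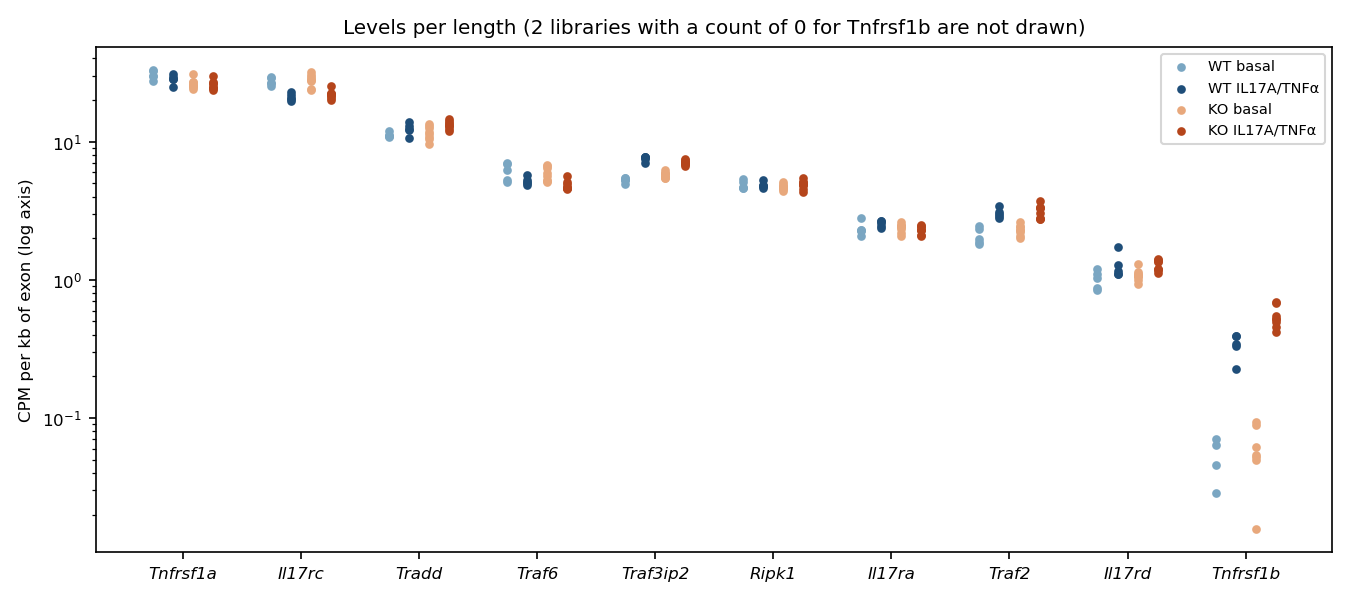
Levels of the 10 members per length, in CPM per kb of exon on a log axis, ordered by the basal WT median, with 1 point a library and the 4 groups side by side. *Tnfrsf1a* and *Il17rc* lie between 19.66 and 33.01, and *Tnfrsf1b* lies below 0.1 at rest and between 0.2282 and 0.6916 with cytokines.

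With cytokines *Tnfrsf1b*, *Traf3ip2*, *Traf2* and *Il17rd* rose and *Il17rc* and *Traf6* fell in both genotypes, while *Il17ra*, *Tnfrsf1a* and *Ripk1* passed the test in neither. In WT cells 6 of 10 members passed the test (edgeR quasi-likelihood, Benjamini-Hochberg adjusted p under 0.1), with 4 higher and 2 lower, beside 36.8% of all genes tested. In KO cells 7 of 10 passed, with 5 higher and 2 lower, beside 35.8% of all genes. A change over 1.5-fold was found for 1 member in each genotype, *Tnfrsf1b*, beside 13.9% of genes in WT and 10.9% in KO cells. Basal and treated values did not overlap for 4 members in WT cells (*Il17rc*, *Traf3ip2*, *Tnfrsf1b* and *Traf2*), beside 20.5% of genes, and for 3 in KO cells (*Traf3ip2*, *Tnfrsf1b* and *Traf2*), beside 11.8%. The median log2 fold change over the 10 members was 0.135 in WT and 0.116 in KO cells, and over all genes 0.014 and 0.005.

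*Tnfrsf1b*, on chromosome 4 from 144938938 to 144973477 (minus strand, GRCm39), was close to the limit of detection at rest. Its counts in the 5 basal WT libraries were 20, 0, 14, 20 and 6, or 0.35, 0.00, 0.23, 0.31 and 0.14 CPM. With cytokines these mice gave 80, 116, 98, 78 and 108 counts, or 1.13, 1.64, 1.95, 1.69 and 1.95 CPM. In KO cells the basal level ran from 0.00 over a median of 0.2631 to 0.4642 CPM, and the treated level from 2.062 over 2.568 to 3.424 CPM. The counts of 0 in WT mouse 2 and KO mouse 1 allow up to 3 read pairs, which at 2 counts a pair are 6 counts, or 0.119 and 0.0813 CPM (counting error only). The receptor gene rose in 13 of 13 mice, and no treated library of either genotype reached down to a basal one. The fitted log2 fold change was 2.98 (SE 0.54, 7.87-fold, adjusted p = 7.31e-05) in WT and 3.38 (SE 0.43, adjusted p = 2.51e-07) in KO cells. The per-kb ratio of *Tnfrsf1a* to *Tnfrsf1b* had a median of 562.4 in 4 basal WT libraries (393.0 to 1152) and 455.9 in 7 basal KO libraries (286.0 to 1987), libraries with a count of 0 left out. It was 83.49 (72.47 to 109.1) in treated WT and 48.62 (35.67 to 65.02) in treated KO libraries. *Tnfrsf1a* thus had the higher transcript level throughout.

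Because *Tnfrsf1b* is best known from immune and endothelial cells, markers of those cells are given beside it. The 9 immune cell markers summed to 18.39 to 24.7 CPM in basal WT, 28.85 to 41.28 CPM in treated WT, 17.59 to 24.99 CPM in basal KO and 20.16 to 42.64 CPM in treated KO libraries. *Cd207* (Langerhans cells) and *Cpa3* (mast cells) were at 0 in every library. The 5 endothelial markers summed to 1.818 to 3.317 CPM, 3.821 to 6.33 CPM, 2.224 to 4.906 CPM and 5.438 to 7.073 CPM in the same order of groups, with *Emcn* at 0 throughout and *Cdh5* at 0 in all groups but treated KO. The immune sum consisted mostly of *Cd68*, a lysosomal gene of macrophages, whose median CPM was 20.39 at rest and 35.65 with cytokines in WT, against 19.86 and 23.44 in KO cells. *Csf1r* (macrophages) had medians of 2.588 and 2.402 CPM (WT) and of 2.243 and 2.074 CPM (KO) in that order, and *Ptprc*, carried by nearly all immune cells, reached at most 0.1162 CPM in any library. The endothelial sum had a higher median with cytokines in both genotypes, and so had *Pecam1*, *Kdr* and *Tie1* within it. The part of these cells in the rise of *Tnfrsf1b* was not tested. In bulk RNA, fewer cells of a type and less RNA per cell cannot be told apart.

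*Traf3ip2* (chromosome 10, 39488930 to 39534689, plus strand) encodes ACT1, the adaptor without which the IL17 receptor does not signal. Basal WT libraries gave 54.18, 53.84, 50.36, 55.23 and 55.49 CPM, and the same mice gave 72.01, 78.92, 79.20, 75.82 and 78.67 CPM with cytokines. KO libraries ran from 55.42 over a median of 58.57 to 63.23 CPM at rest, and from 67.46 over 72.06 to 75.94 CPM with cytokines. It rose in 13 of 13 mice, without overlap of basal and treated values in either genotype. The log2 fold change was 0.52 (SE 0.04, adjusted p = 1.13e-10) in WT and 0.30 (SE 0.03, adjusted p = 4.55e-08) in KO cells. The annotation places the lncRNA *E130307A14Rik* on the other strand over 37282 bases of this gene, introns included. Whether reads were counted by strand is not given in the sources used here, so that reads of the pair may be mixed where exons overlap. *E130307A14Rik* was listed at 2.499 to 8.356 CPM.

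*Traf2*, a ubiquitin ligase adaptor of both TNF receptors (chromosome 2, 25406097 to 25436987, minus strand), was the third member that rose in 13 of 13 mice. Basal WT libraries gave 18.70, 15.18, 18.03, 14.07 and 14.46 CPM, and treated ones 26.18, 23.13, 21.55, 22.13 and 23.98 CPM. In KO cells it ran from 15.32 over 17.62 to 20.26 CPM at rest and from 21.02 over 24.36 to 28.60 CPM with cytokines. In both genotypes the lowest treated value exceeded the highest basal one. The log2 fold change was 0.54 (SE 0.10, adjusted p = 4.79e-05) in WT and 0.45 (SE 0.08, adjusted p = 2.58e-05) in KO cells.

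*Traf6*, the ubiquitin ligase next to ACT1 (chromosome 2, 101508519 to 101533545, plus strand), moved the other way. Basal WT libraries gave 54.63, 73.17, 53.34, 71.37 and 65.13 CPM, and treated ones 50.38, 54.89, 52.00, 52.65 and 59.21 CPM. KO libraries ran from 53.02 over 59.97 to 69.87 CPM at rest and from 47.36 over 48.3 to 58.3 CPM with cytokines. It fell within each of the 13 mice, although basal and treated ranges overlapped in both genotypes. In KO cells the highest treated library, mouse 8 at 58.30 CPM, and that of mouse 4 at 53.13 CPM lay above the lowest basal value. The log2 fold change was -0.24 (SE 0.09, adjusted p = 0.0384) in WT and -0.28 (SE 0.07, adjusted p = 0.00266) in KO cells. In WT cells the call was lost without mouse 2 (adjusted p = 0.133) or mouse 4 (adjusted p = 0.183), the 2 with the highest basal level.

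*Il17rc* (chromosome 6, 113448388 to 113460103, plus strand), the chain that pairs with IL17RA, also fell. Its values in basal WT libraries were 133.87, 121.10, 121.48, 131.56 and 115.26 CPM, and in treated ones 99.41, 89.18, 93.23, 92.98 and 104.08 CPM. KO libraries ran from 107.9 over 128.2 to 145.3 CPM at rest and from 90.13 over 98.77 to 115.3 CPM with cytokines. The treated WT libraries all lay below the basal ones, and in KO cells it fell in 7 of 8 mice with overlapping ranges. The log2 fold change was -0.38 (SE 0.07, adjusted p = 8.27e-05) in WT and -0.35 (SE 0.06, adjusted p = 9.45e-06) in KO cells.

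*Il17ra* (chromosome 6, 120440104 to 120464520, plus strand), the chain shared by the IL17 receptors, did not pass the test in either genotype. Basal WT libraries gave 19.82, 20.04, 18.27, 20.00 and 24.44 CPM, and treated ones 20.74, 21.63, 23.22, 22.63 and 23.28 CPM. In KO cells it ran from 18.26 over 21.4 to 23.08 CPM at rest and from 18.21 over 20.16 to 21.89 CPM with cytokines. The log2 fold change was 0.12 (95% interval -0.04 to 0.28) in WT and -0.05 in KO cells (adjusted p = 0.579). *Il17rd* (chromosome 14, 26760889 to 26829243, plus strand), at a median of 12.15 CPM (9.94 to 14.07) in basal and of 13.66 CPM (highest 20.28, in mouse 3) in treated WT libraries, rose by a log2 fold change of 0.33 (SE 0.12, adjusted p = 0.0286). In KO cells, at 10.96 to 15.36 CPM basal and 13.34 to 16.67 CPM treated, it rose by 0.25 (SE 0.09, adjusted p = 0.0434), a call lost without KO mouse 5, 6 or 7 (adjusted p up to 0.121). In WT cells the *Il17rd* call was lost when only the 2 WT groups entered the fit (adjusted p = 0.109).

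*Tnfrsf1a* (chromosome 6, 125325566 to 125339632, plus strand) stood at 86.81, 102.98, 93.90, 94.08 and 103.96 CPM in basal WT libraries and at 78.38, 96.93, 89.91, 89.80 and 93.19 CPM in treated ones. It was lower with cytokines within each of the 5 WT mice and within 6 of 8 KO mice, by a fitted log2 fold change of -0.10 (adjusted p = 0.267) and -0.03 (adjusted p = 0.76). With the mouse as a block, which uses that each mouse gave both libraries, the WT value passed the test (log2 fold change -0.10, adjusted p = 0.0491). *Tradd* (chromosome 8, 105984883 to 105996354, minus strand), the first adaptor of TNF receptor 1, ran from 25.11 to 27.51 CPM in basal and from 24.69 to 31.78 CPM in treated WT libraries, with a log2 fold change of 0.15 (adjusted p = 0.171). In KO cells *Tradd* rose from a median of 26.78 CPM to 30.38 CPM, by a log2 fold change of 0.18 (SE 0.06, adjusted p = 0.0292), a call lost without KO mouse 3, 4 or 7 (adjusted p up to 0.136). On the other strand the protein-coding genes *Fbxl8* and *Phaf1* overlap *Tradd* over 4711 and 4167 bases. *Serpinb6a* overlaps *Ripk1* there over 672 bases. These overlaps are of gene spans, introns included. If reads were counted without strand, those of exons shared with these genes may be mixed too. On the same strand, lncRNAs overlap the gene spans of *Il17rd*, *Ripk1* and *Tnfrsf1b* over 7675, 660 and 389 bases. *Ripk1* (chromosome 13, 34186141 to 34221130, plus strand), the kinase of the TNF receptor complex, lay between 47.21 and 59.59 CPM in all libraries. Its log2 fold change was -0.01 in WT (95% interval -0.12 to 0.11) and 0.05 in KO cells (adjusted p = 0.466).

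**Figure D3:**
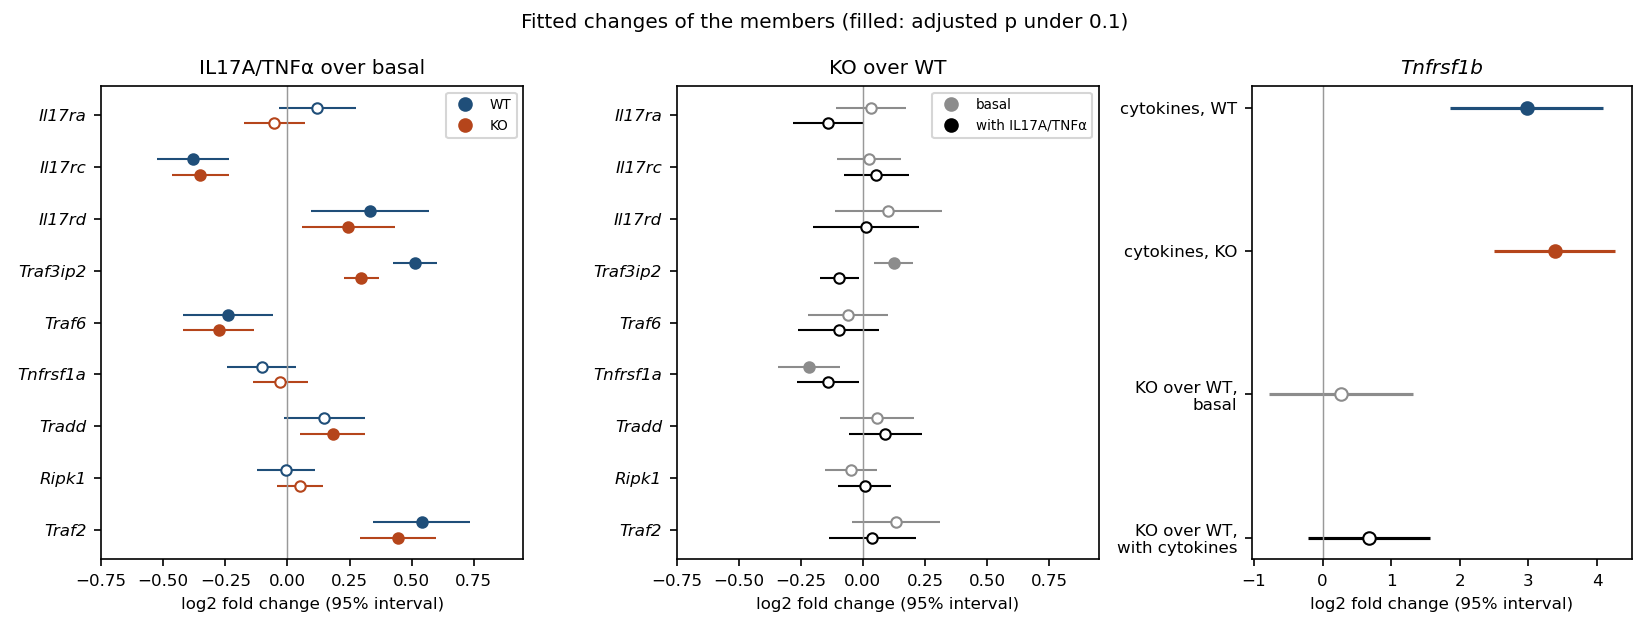
Fitted log2 fold changes with 95% intervals, for cytokines over basal in each genotype (left), for KO over WT at rest and with cytokines (middle), and for *Tnfrsf1b* on an axis of its own (right). Filled points have an adjusted p under 0.1; at rest these are *Traf3ip2* (0.12) and *Tnfrsf1a* (-0.22) between genotypes, and with cytokines no member is filled.

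At rest, KO cells held slightly more *Traf3ip2* and less *Tnfrsf1a* transcript than WT cells. These were the 2 of 10 members that passed the test between genotypes, 1 higher and 1 lower, beside 13.6% of all genes tested. No member changed over 1.5-fold (2.68% of genes did), and no member had basal values that did not overlap between genotypes (3.03% of genes had). *Tnfrsf1a* had a median of 94.08 CPM in WT and of 81.0 CPM in KO cells (range 76.09 to 97.84), where KO mouse 8 at 97.84 CPM was the only KO library above the lowest WT value. The log2 fold change was -0.22 (SE 0.06, 95% interval -0.34 to -0.09, adjusted p = 0.0201), and it stayed between -0.26 and -0.19 and past the threshold whichever mouse was left out. *Traf3ip2* was 0.12 higher on the log2 scale (SE 0.04, adjusted p = 0.044). The lowest KO library (55.42 CPM) lay just under the highest WT library (55.49 CPM), and the call was lost without WT mouse 3 (adjusted p = 0.171) or KO mouse 5 (adjusted p = 0.113). For the main IL17 receptor chains the intervals of the log2 difference between genotypes at rest were -0.11 to 0.17 for *Il17ra* and -0.10 to 0.15 for *Il17rc*. For *Tnfrsf1b* the interval was wide, -0.78 to 1.32, as a difference was not detectable at its basal count. The other 5 members had fitted log2 differences from -0.06 to 0.13.

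With cytokines, 0 of 10 members passed the test between genotypes in edgeR, where 2.84% of all genes did. DESeq2 also called 0. At an unadjusted p under 0.05 in edgeR there were 3 (*Il17ra*, *Traf3ip2* and *Tnfrsf1a*, all lower in KO). The share of all genes at that threshold was not computed, so this count is not a result about the members. A change over 1.5-fold was called for 0 members, beside 0.704% of genes. The log2 differences of those 3 were -0.14 (95% interval -0.28 to 0.00), -0.10 (-0.17 to -0.02) and -0.14 (-0.27 to -0.02). Leaving out WT mouse 1 brought *Traf3ip2* (adjusted p = 0.0998) and *Tnfrsf1a* (adjusted p = 0.0534) past the threshold, and leaving out KO mouse 8 brought *Tnfrsf1a* past it (adjusted p = 0.0664). In these 2 fits the genes called over the table rose too, from 479 of 16893 to 2069 of 16850 and 1114 of 16939. Values did not overlap between genotypes for 1 member, beside 1.08% of genes. That member was *Tnfrsf1b*, whose 8 treated KO libraries (2.062 to 3.424 CPM) all lay above the 5 treated WT libraries (1.13 to 1.95 CPM). Its fitted log2 difference was 0.68 (SE 0.44, 95% interval -0.22 to 1.57, adjusted p = 0.495). The adjusted p was 0.0513 when only the 2 treated groups entered the fit, without the near-zero basal libraries. It was 0.328 in DESeq2 and 0.249 with the mouse as a block in limma-voom, so that the latter differs in the test as well as in the block. Of the 9 immune cell markers, 3 passed the filter on low counts and 0 were called between genotypes with cytokines. In treated libraries the medians of *Cd68* (35.65 CPM in WT, 23.44 CPM in KO) and *Csf1r* (2.402, 2.074) were lower in KO cells. So were those of *Ptprc* (0.0846, 0) and *Trdc* (0.1412, 0.042), while *Itgam* (0.2384, 0.4321) and *Adgre1* (0.0282, 0.1512) were higher. Apart from *Cd68* and *Csf1r*, these levels were close to 0. Endothelial markers had a median sum of 6.013 CPM in treated WT and 6.178 CPM in treated KO libraries. Their part in the difference of *Tnfrsf1b* was not tested.

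Whether the cytokine response of a member itself differed between genotypes was tested by the interaction term. It passed for 1 of 10 members, *Traf3ip2*, beside 0.983% of all genes, and over 1.5-fold for 0 members, beside 0.219%. The rise of *Traf3ip2* was smaller in KO than in WT cells by 0.22 on the log2 scale (interaction -0.22, SE 0.06, 95% interval -0.33 to -0.11, adjusted p = 0.0661). Within mice it rose by 0.41 to 0.65 (median 0.50) in WT and by 0.19 to 0.44 (median 0.29) in KO cells, so that the ranges overlapped. The ranges of the within-mouse changes overlapped between genotypes for all 10 members, while 1.24% of all genes had ranges that did not. The call was lost in 8 of the 13 fits that left out 1 mouse, with an adjusted p of up to 0.29, and without a filter on low counts (adjusted p = 0.243), while DESeq2 (adjusted p = 0.0437) and the block (adjusted p = 0.0807) kept it. Between genotypes the log2 difference of *Traf3ip2* was thus 0.12 at rest and -0.10 with cytokines, of which the latter did not pass the test. For *Il17ra*, the interaction was -0.17 (95% interval -0.37 to 0.03), and for *Tnfrsf1b* 0.40 (-0.98 to 1.79).

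Other genes of the same pathways were taken from lists by role. The counts below are to be read beside all genes tested, of which 36.8% passed in WT cells (3175 higher of 6221) and 35.8% in KO cells (2989 higher of 6048), with a median log2 fold change of 0.014 and 0.005. Of 18 other IL17 signalling proteins, 11 rose in WT cells, and 9 rose and 2 fell in KO cells, led by *Zc3h12a*, an RNase that limits the response (log2 fold change 2.59 in WT and 2.21 in KO), and the transcription factor *Cebpd* (1.36 and 1.25). The median of this list was 0.21 in WT and 0.131 in KO cells. Of 6 TNF ligand and receptor shedding genes, 4 rose and 1 fell in each genotype, with *Tnf* (2.83 in WT, 1.51 in KO) and *Rhbdf1* (0.95 and 0.84) higher and *Timp3*, an inhibitor of the shedding protease, lower (-0.68 and -0.81). Here the list median was 0.75 and 0.636. Of 15 genes of the TNF receptor ubiquitin complex, 3 rose and 4 fell in each genotype, with *Birc3* (1.83 and 1.57) and *Tnfaip3*, the brake A20 (1.83 and 1.19), at the top and a list median of 0.02 and -0.039. Among 10 genes of the TNF cell death branch, 8 rose in WT and 9 in KO cells, among them *Mlkl* (0.96) and *Cflar* (0.92) in WT and *Cflar* (0.79) and *Ripk3* (0.79) in KO cells, with a list median of 0.446 and 0.384. These transcripts rose while *Ripk1*, which binds RIPK3, did not pass the test.

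Some other receptors had larger log2 fold changes than the members other than *Tnfrsf1b*. Of 14 further TNF receptor family genes tested, 5 rose and 2 fell in WT and 4 rose and 2 fell in KO cells, with *Ngfr* (2.53 and 1.42) and *Tnfrsf11b*, a decoy receptor (1.47 and 1.39), having the largest called rises and *Tnfrsf19* the largest called fall (-1.01 and -1.20), and with a list median of 0.25 and 0.062. *Ngfr* was near 0 at rest, with a median of 0.0347 CPM in WT and 0.4489 CPM in KO libraries, so that its fold change is poorly determined. Of 13 receptors and adaptors that also use TRAF6, 6 rose and 5 fell in WT and 5 rose and 4 fell in KO cells, with *Il18rap* (2.30 and 1.27) and *Tlr2* (1.88 and 1.23) at the top and a list median of 0.002 and 0.054. *Il18rap* too was low at rest, with a median of 0.2363 CPM in WT and 0.4239 CPM in KO libraries, so that its fold change rests on few counts. Of 8 IL17 ligands and other IL17 receptors, 5 passed the filter. *Il17c*, an epithelial ligand, rose by 4.64 in WT and 3.19 in KO cells, though from at most 0.1042 CPM and 0.3071 CPM at rest, and *Il17rb* fell (-1.41 and -1.63). *Il17a* had 0 counts in all 26 libraries, which by the same limit allows up to 6 counts in each.

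Between genotypes at rest, 5 of the 18 other IL17 signalling genes were higher in KO cells, where over all genes 13.6% were called (1279 higher of 2303), with *Arid5a*, an RNA-binding protein, at 0.59. In the TNF receptor ubiquitin complex 3 of 15 were higher and 2 lower, and among genes that use TRAF6 4 of 13 were higher and 2 lower. Of the TNF ligand and shedding genes 2 of 6 were higher. The cell death branch had 1 of 10 higher, and the further TNF receptor family 1 of 14 higher and 1 lower. Of the 5 IL17 ligands and other IL17 receptors tested, 0 were called. *Tnf* itself was higher by 1.29 (SE 0.16, adjusted p = 2.38e-06), at 4.301 to 7.03 CPM in WT and 9.525 to 18.81 CPM in KO libraries without overlap, and its rise with cytokines was smaller in KO cells (interaction -1.32, adjusted p = 0.00251). With cytokines *Tnf* did not separate the genotypes, at 31.9 to 39.98 CPM and 28.19 to 50.53 CPM. *Tnfaip3* followed the same order (0.58 at rest, interaction -0.64, adjusted p = 0.00201). *Traf3ip2* was also higher at rest (0.12) with a negative interaction (-0.22), but its difference turned to -0.10 with cytokines, which did not pass. These 2 calls of *Traf3ip2* depended on which mice entered the fit.

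The relation between members at rest and the later response was compared across the 13 mice. The response was the mean log2 CPM with cytokines over 18 response genes, all of which rose in both genotypes, and it was 5.56 ± 0.13 (SD, n = 5) in WT and 5.61 ± 0.11 (SD, n = 8) in KO mice. Of 10 members, none passed after Benjamini-Hochberg adjustment over the 10 (lowest adjusted permutation p = 0.411). The strongest was *Traf6*, with Pearson r = 0.574 (permutation p = 0.0411, adjusted p = 0.411) and Spearman rho = 0.423 (permutation p = 0.153, adjusted p = 0.437). Without the 2 mice farthest from the median *Traf6* level (WT mice 2 and 4), r was 0.806. Within the 8 KO mice r was 0.791 (exact permutation p = 0.0105, adjusted p = 0.105) and Spearman rho was 0.714 (exact permutation p = 0.0576). The 5 WT mice were too few for a value of their own. For *Tnfrsf1a* r was 0.268 across mice and 0.732 within KO mice (exact permutation p = 0.0448, adjusted p = 0.224). Its Spearman rho within KO mice was 0.452 (exact permutation p = 0.268). Among KO mice, mouse 8 had the highest response (5.81) and the highest basal *Traf6* (69.87 CPM) and *Tnfrsf1a* (97.84 CPM). The values of r within KO mice may thus rest in part on this mouse.

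When the response was taken as the log2 change within the mouse, 3.57 ± 0.38 (SD, n = 5) in WT and 3.07 ± 0.22 (SD, n = 8) in KO mice, *Tnfrsf1a* passed (r = 0.762, permutation p = 0.00307, adjusted p = 0.0307, Spearman rho = 0.643). In this form the basal library enters both axes, and WT mice were higher on both. At rest, 5 of the 18 response genes were called higher in KO cells, beside 13.6% of all genes called. Their median log2 difference over the 18 was 0.367. With cytokines 1 was called, lower in KO cells, beside 2.84% of all genes. In the interaction 4 were called, with 4 lower, beside 0.983%. Within the 8 KO mice r was 0.624 for *Tnfrsf1a* (exact permutation p = 0.1036, adjusted p = 0.27), and none of the 10 members passed. Spearman rho for *Tnfrsf1a* was 0.286 there (exact permutation p = 0.5008). The largest r in size there was that of *Il17rd*, -0.814 (exact permutation p = 0.01744, adjusted p = 0.1744), which was -0.37 across all 13 mice. All p-values here are two-sided.

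**Figure D4:**
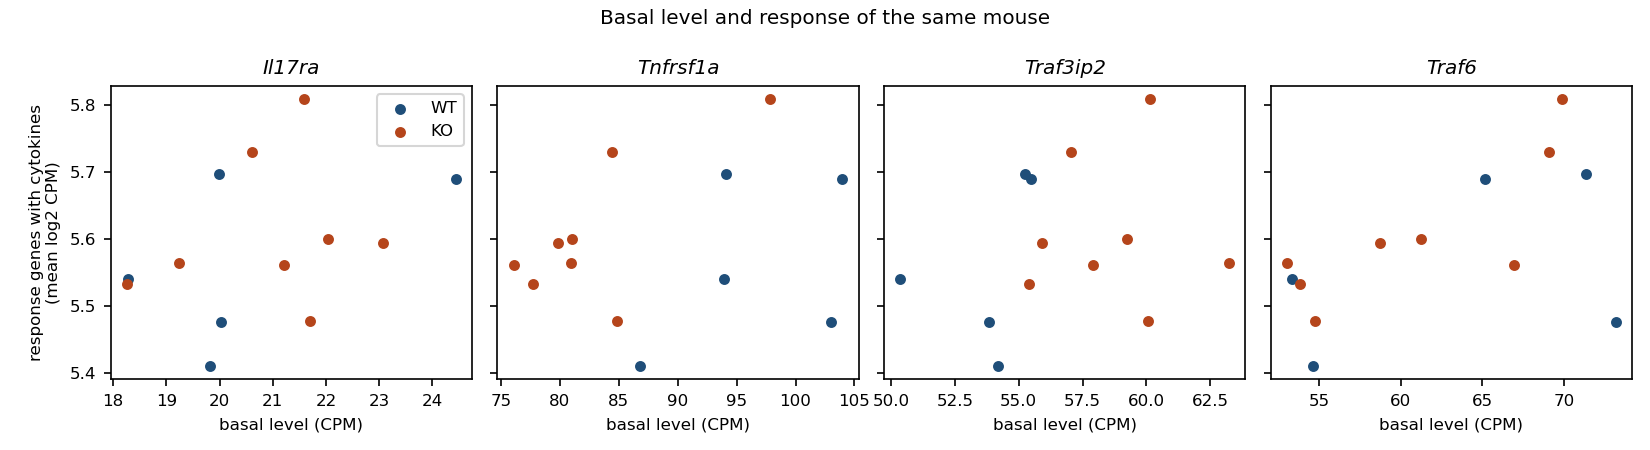
Basal level of *Il17ra*, *Tnfrsf1a*, *Traf3ip2* and *Traf6* in CPM against the mean log2 CPM of 18 response genes with cytokines in the same mouse, 1 point a mouse (5 WT, 8 KO). WT and KO points overlap on the response axis, and *Traf6* has the highest r (0.574).

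Across the 26 libraries, the genes whose log2 CPM ran most like a receptor were *Tbc1d10a* (r = 0.918), *Thop1* (0.914) and *Avpi1* (0.906) for *Il17rc*, *Rgl2* (0.901), *Nrarp* (0.877) and *Sprr2a3* (0.87) for *Tnfrsf1a*, and *Prl2a1* (0.918), *Gab2* (0.915) and *Tirap* (0.899) for *Tnfrsf1b*. For *Il17ra* the closest were *Gm47920* (0.67), *Mkrn3* (0.659) and *2610206C17Rik* (0.656), of which the first averaged 0.294 CPM. These values describe libraries that share treatment and genotype, and low counts weaken them.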

How the data were processed

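The authors sequenced poly(A) RNA of 26 libraries (Illumina TruSeq stranded, NovaSeq, paired ends), aligned reads to mm39 with STAR 2.7.10b and counted them per gene with featureCounts 2.0.6 on GENCODE. They deposited the raw counts used here and a table of log2 values of DESeq2-normalized counts, used only as an alternative. Whether the counting used strand is not given in the sources used here.

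Genes with a mean DESeq2-normalized count over 10 entered edgeR 4.0.16 (R 4.3.3): TMM, quasi-likelihood F test, 4 groups, no covariate, Benjamini-Hochberg adjustment over 16893 genes. Called means an adjusted p under 0.1. The script was tested on simulated data. CPM used the TMM-scaled library sizes, and log2 CPM a prior count of 1. Levels per kb divide by the union of exons in GENCODE (GRCm39). Permutation tests drew 100000 resamples (13 mice) or enumerated all orders (8 mice).

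Members and gene lists were chosen with earlier results of these data known. Other genes were named by a fixed rule: per list and comparison, up to 2 largest rises and 2 largest falls among genes called over 1.5-fold, the 3 genes most like each receptor, and *Pla2g4d*. *E130307A14Rik* and single markers of keratinocytes and other cell types were named after their values were seen. *Fbxl8*, *Phaf1* and *Serpinb6a* were named for their overlap with members. Upstream sequence was cut where it reached into the annotated gene.

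Replicate numbers pair the libraries, since 1 mouse gave both; within a mouse, the deviations of the 2 libraries from their groups had correlations of 0.001 to 0.254 (median 0.106). Replicates are separate mice, and any 2 libraries of a group differed by a chi-square of at least 7.22 for each degree of freedom, so none was a repeat. Alternatives were DESeq2 1.42.0, its size factors in edgeR, limma 3.58.1 on the deposited log2 values, filterByExpr or no filter at all, a fit of only those groups being compared, a block for the mouse, and leaving out each mouse. The block entered edgeR for the cytokine effects and the interaction. Between genotypes it entered limma-voom as a correlation within mice. Halving the counts was added after seeing the data.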

Additional observations from a re-analysis of the deposited data

Results flagged for a closer look

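Of 40 groups of member values (10 members in 4 groups), 4 had 1 library far from the others by Dixon's test; chance gives about 1 in 20. *Il17ra* in basal WT mouse 5 was at 24.44 CPM, above the other 4 (18.27 to 20.04 CPM). *Il17rd* in treated WT mouse 3 was at 20.28 CPM, above the other 4 (at most 15.05 CPM). *Tnfrsf1a* in basal KO mouse 8 was at 97.84 CPM, above the other 7 (76.09 to 84.86 CPM). *Tradd* in basal WT mouse 1 was at 27.51 CPM, above the other 4 (25.11 to 25.73 CPM). The cytokine response of *Traf3ip2* differed between genotypes by the interaction test, at -0.22 on the log2 scale.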

How the results depend on the processing

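The rises of *Traf3ip2*, *Traf2* and *Tnfrsf1b* and the falls of *Il17rc* with cytokines in both genotypes, the fall of *Traf6* in KO cells and the lower *Tnfrsf1a* in KO cells at rest kept direction and call in 21 of 21 alternatives. For a cytokine effect within 1 genotype, these include fits without a mouse of the other genotype. Such fits keep all the compared libraries and so bear little on it. Members called between genotypes at rest went from 2 to 1 without a filter and with only the groups compared (*Traf3ip2* lost, adjusted p = 0.161 and 0.13), and lay from 1 to 2 with a mouse left out. Between genotypes with cytokines they went from 0 to 1 with only the groups compared (*Tnfrsf1b*, also over 1.5-fold, 1), and lay from 0 to 2 with a mouse left out. Genes called over the table in this comparison lay from 107 to 2069 with a mouse left out. In the interaction the main count of 1 fell to 0 without a filter and lay from 0 to 1 with a mouse left out (0 in 8 of 13 fits). Members over 1.5-fold in WT lay from 1 to 2 with a mouse left out, *Traf2* joining without WT mouse 3. The cause was not tested.

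With the replicate block, the log2 difference of *Ripk1* between genotypes with cytokines turned to -0.0026 (limma-voom). In edgeR with the block, the cytokine effect on *Tnfrsf1a* in WT passed (-0.10, adjusted p = 0.0491). Genes called over the table in the interaction went from 166 to 473 there. The block changed no other member's call. DESeq2 gave 250 there and 800 between genotypes with cytokines, where the main count was 479 and only the groups compared gave 867. Leaving out 1 mouse turned uncalled values near 0: *Ripk1* in WT with cytokines (-0.0379 to 0.0112), *Tnfrsf1b* (-0.0332 to 0.527), *Il17ra* (-0.0111 to 0.1003) and *Il17rc* (-0.0066 to 0.0533) between genotypes at rest, *Ripk1* (-0.0101 to 0.0426), *Il17rd* (-0.0335 to 0.1498) and *Traf2* (-0.0014 to 0.089) with cytokines, and *Traf6* (-0.0905 to 0.0178), *Il17rc* (-0.0307 to 0.0923) and *Tradd* (-0.0225 to 0.0863) in the interaction. Across mice, r turned with the change of the response genes for *Il17ra* (-0.097), *Il17rc* (-0.036), *Traf3ip2* (-0.478) and *Tnfrsf1b* (-0.198), and without the 2 mice farthest from the median for *Tnfrsf1b* (-0.44) and *Ripk1* (-0.111), none past the threshold; *Traf6* passed there (0.806, adjusted p = 0.0161). Levels of 9 members per kb in basal WT cells moved with the longest transcript as length, *Traf3ip2* to 8.238 and *Traf2* to 3.4. Depth limits basal *Tnfrsf1b* (0 to 26 counts).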
